A study of Mus musculus with 25 samples.

Results

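The 9 genes of the BRCA1 complex and of homologous recombination followed here were measured by RNA-seq in mammary organoids of Brca1/P53-deficient mice: Brca1, Bard1, Palb2, Brca2, Brip1, Fancd2, Xrcc2, Rad51ap1 and Blm. They were chosen by name as BRCA1 partners and recombination factors, with earlier results of these data known. They are 9 of the 34866 genes in the deposited expression table. All 9 passed the filter on low values, which asked for at least 1 TPM (transcript abundance as a share of a fixed library total) in at least 5 of the 25 libraries and which 54.7% of genes passed. Bard1 and Fancd2 passed it only with the 60-day and nulliparous libraries counted in. All mice carried K14-Cre with floxed alleles of both Brca1 and P53 (Trp53), and each of 5 groups had 5 libraries. At 60 days after the second weaning there were cabergoline-treated and untreated multiparous mice, with age-matched nulliparous mice beside them. At 1 day after the second weaning there were again cabergoline-treated and untreated multiparous mice, from another set of animals. Cabergoline, a dopamine agonist that lowers prolactin, was injected intraperitoneally at 0.2 mg per kg on the day of weaning, according to the sample labels. The study's methods state a slightly different dose. Cre is made from the keratin 14 promoter, so it acts in keratin 14 lineages and leaves the genes intact in other cells of a gland. All 5 groups carried the floxed alleles, and the level of a whole gene does not tell deleted from undeleted transcripts, so the deletion could not be checked here. The labels count the samples as separate replicates, and p-values measure the spread between them.

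BRCA1 and BARD1 form a ubiquitin ligase that acts at broken DNA and, with PALB2, brings BRCA2 to the break. BRCA2 then acts on the resected single strands, which search the sister chromatid for a matching template. Because the sister is present only after replication, most genes of this pathway are made mainly in S and G2 phase cells, and in the mammary gland loss of BRCA1 is known for leading to basal-like tumours.

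The libraries differed in composition before any comparison was made. Organoids were labelled as mammary, and no luminal or basal marker was at 0 in all libraries of a group, yet the summed level of 8 luminal markers lay between 15.2 and 214 scaled TPM in cabergoline-treated 60-day libraries, 12.5 and 2181 in untreated 60-day libraries, and 88.8 and 2019 in nulliparous libraries. Scaled TPM are TPM divided by a factor per library that sets the typical gene equal across libraries. At 1 day the luminal sums ran between 524 and 1789 in cabergoline-treated and 14.5 and 2729 in untreated libraries. The 6 T cell markers summed to more than the luminal markers in 13 of 25 libraries: 4 cabergoline-treated and 4 untreated libraries at 60 days, 2 nulliparous libraries, and 1 cabergoline-treated and 2 untreated libraries at 1 day. Untreated 1-day replicate 3 held only 104 TPM of 5 milk transcripts against 211402 TPM at its group's median, and untreated 60-day replicate 2 held 41255 TPM of them against a median of 41.8. Whether the labels of these libraries are right could not be settled, so values of both untreated groups carry that doubt. The paper's figure legends count fewer than 5 mice in the untreated 60-day and the cabergoline-treated 1-day groups. They do not name a library left out, and all 5 deposited libraries of each group were used here. The fewest genes above 0 TPM were found in cabergoline-treated 60-day replicate 4 (16277) and untreated 60-day replicate 2 (17223), with at least 20105 in each of the others. The transcript Gm12895 took 28 to 56.8% of all TPM at 1 day and at most 10.5% in the other libraries, and scaling factors were 0.264 to 0.937 at 1 day and 1.12 to 2 elsewhere. In bulk libraries such as these, fewer cells that make a gene and less RNA per cell cannot be told apart.

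Promoters of 7 of the 9 genes were found in the RefSeq promoter table, 300 bases each on GRCm38.p6. Bard1 and Brca2 are shown because they alone held a match to the E2F motif of cell cycle genes, and Brca1 because it followed the other genes least. Capitals mark the E2F motif (TTTCCCGC, TTTCGCGC, TTTGGCGC or TTTGCCGC), the cell cycle homology motif TTTGAA and the motif CCAAT, each read on both strands.
Bard1 promoter, chr1:71102923-71103222, minus strand: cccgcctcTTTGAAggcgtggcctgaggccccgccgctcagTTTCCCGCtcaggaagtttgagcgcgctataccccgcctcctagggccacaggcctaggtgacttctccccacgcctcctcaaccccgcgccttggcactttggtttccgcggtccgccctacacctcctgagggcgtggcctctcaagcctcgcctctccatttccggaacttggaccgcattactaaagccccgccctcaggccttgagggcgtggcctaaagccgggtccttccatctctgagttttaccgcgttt
Brca2 promoter, chr5:150522371-150522670, plus strand: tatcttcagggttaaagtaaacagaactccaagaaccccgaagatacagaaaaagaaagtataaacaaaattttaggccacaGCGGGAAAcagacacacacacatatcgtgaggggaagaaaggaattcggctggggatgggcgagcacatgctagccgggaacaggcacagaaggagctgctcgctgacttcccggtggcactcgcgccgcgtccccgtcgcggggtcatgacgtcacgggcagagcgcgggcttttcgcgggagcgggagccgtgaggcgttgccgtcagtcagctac
Brca1 promoter, chr11:101551906-101552205, minus strand: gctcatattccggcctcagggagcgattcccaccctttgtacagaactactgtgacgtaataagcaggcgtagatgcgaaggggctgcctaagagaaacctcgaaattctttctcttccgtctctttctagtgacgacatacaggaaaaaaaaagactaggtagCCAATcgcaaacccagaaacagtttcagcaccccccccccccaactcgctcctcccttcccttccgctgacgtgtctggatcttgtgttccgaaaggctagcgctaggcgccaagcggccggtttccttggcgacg
The E2F motif began 209 bases before the RefSeq start of Bard1 and 168 bases before that of Brca2, and 2.32% of 27025 mouse promoters held it. TTTGAA was in the Bard1 window 242 bases before the same RefSeq start and in 18.1% of promoters. For Bard1 the GENCODE start, 71103146, lies upstream of the RefSeq start, so both motifs are nearer to it. CCAAT was 86 bases before the start of Brca1 and was also found for Palb2, Brip1, Rad51ap1 and Blm, thus in 5 of 7 windows against 37.9% of all promoters. The motifs are matches of letters, not binding sites.

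Brca1 (ENSMUSG00000017146.12, GRCm38 chr11:101488764-101551955, minus strand) scattered widely within groups. It had 3.51, 4.27, 1.37, 7.76 and 4.84 scaled TPM in cabergoline-treated 60-day organoids, 3.31, 9.48, 0.49, 2.13 and 5.86 in untreated 60-day organoids, and 5.75, 5.07, 6.82, 2.83 and 3.58 in nulliparous organoids. At 1 day it had 2.21, 2.9, 2.31, 2.53 and 5.3 scaled TPM with cabergoline and 1.62, 3.95, 2.86, 0.951 and 1.6 without. The untreated 60-day group alone thus spanned the whole range of the series, its highest library being the one rich in milk transcripts, and every pair of groups overlapped. As deposited, Brca1 averaged 7.24 ± 3.66, 7.05 ± 5.98 and 8.16 ± 3.23 TPM in the cabergoline-treated 60-day, untreated 60-day and nulliparous groups, and 1.87 ± 1.21 and 1.25 ± 1.18 TPM in the cabergoline-treated and untreated 1-day groups (SD, n = 5 each). Trp53, the other floxed gene, averaged 68.5 ± 23.1, 57.7 ± 34.8, 48.6 ± 24.4, 17.8 ± 11.4 and 19.8 ± 21.1 TPM in the same order of groups.

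Bard1 (ENSMUSG00000026196.7, chr1:71027498-71103146, minus strand), the obligate partner of BRCA1 in the ligase, lay lower, at a mean of 3.52 TPM over all libraries against 5.11 TPM for Brca1. Its scaled TPM were 3.94, 4.44, 1.74, 0.729 and 3.57 in cabergoline-treated and 3.43, 1.92, 1.53, 1.92 and 4.41 in untreated 60-day organoids, against 4.75, 3.46, 4.03, 3.26 and 4.05 in nulliparous organoids. At 1 day they were 0.849, 1.51, 0.984, 1.61 and 2.18 with cabergoline and 0.757, 1.82, 3.03, 0.895 and 0.68 without. The nulliparous libraries lay close together, between 3.26 and 4.75, and the lowest 60-day value belonged to the cabergoline-treated library with the fewest genes detected.

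Palb2 (ENSMUSG00000044702.13, chr7:122107262-122132985, minus strand), which bridges BRCA1 and BRCA2, averaged 13.6 ± 7.46, 9.55 ± 2.14 and 12.2 ± 3.84 scaled TPM in the cabergoline-treated 60-day, untreated 60-day and nulliparous groups. It stayed between 8.28 and 8.77 scaled TPM in all 5 cabergoline-treated 1-day libraries, against 5.89 to 11.8 in the untreated 1-day libraries. The single highest value, 25.7, was again cabergoline-treated 60-day replicate 4, the library where Bard1 was lowest among the 60-day and nulliparous libraries.

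Brca2 (ENSMUSG00000041147.10, chr5:150522630-150570329, plus strand), which PALB2 brings to DNA breaks, was the highest of the 9 genes, with a mean of 25.7 TPM over all libraries. It had 20.1, 27.6, 18.8, 20 and 27.5 scaled TPM in cabergoline-treated and 32.5, 13.8, 25.9, 21.1 and 22.4 in untreated 60-day organoids. The nulliparous values were 12.6, 20.7, 23.9, 20.6 and 19.8. At 1 day Brca2 had 13.8, 14.1, 12.9, 18.8 and 19.2 scaled TPM with cabergoline and 6.53, 23.8, 26.9, 16.4 and 10.5 without, so the untreated 1-day group held the lowest library of the series beside one at 26.9.

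Brip1 (ENSMUSG00000034329.16, chr11:86058138-86201193, minus strand) encodes a helicase that binds the BRCT repeats of BRCA1. It averaged 4.09 ± 1.3, 3.71 ± 1.59 and 4.41 ± 0.854 scaled TPM in the cabergoline-treated 60-day, untreated 60-day and nulliparous groups, and 2.79 ± 0.654 and 3.35 ± 0.921 in the cabergoline-treated and untreated 1-day groups. The ranges of all groups overlapped.

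Fancd2 (ENSMUSG00000034023.16, chr6:113531682-113597017, plus strand), which is ubiquitinated at DNA crosslinks by the Fanconi core complex, differed between the times more than between treatments. It had 4.18, 3.73, 1.64, 1.07 and 3.2 scaled TPM in cabergoline-treated 60-day organoids, against 0.763, 1.02, 0.9, 0.976 and 1.16 in cabergoline-treated 1-day organoids. In untreated mice it had 2.92, 3.09, 2.31, 2.6 and 4.21 at 60 days, against 0.996, 2.22, 1.36, 0.195 and 0.521 at 1 day. The untreated groups did not overlap, and the cabergoline-treated groups overlapped through a single 60-day library, replicate 4. Nulliparous libraries had 1.01, 3.65, 3.98, 2.59 and 4.59. As deposited, Fancd2 was 0.274 to 0.852 TPM in cabergoline-treated and 0.0515 to 1.34 TPM in untreated 1-day libraries. The 1-day side of its comparisons over time thus lies near the floor. Exons of Fancd2 overlap those of Fancd2os on the opposite strand. Exons of Brca2 overlap those of Gm42529, and exons of Palb2 those of Gm16326, also on the opposite strand. Whether strand was used in the counting is not given in the sources used here.

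Xrcc2 (ENSMUSG00000028933.11, chr5:25689812-25705825, minus strand), a factor of early homologous recombination, was low in all libraries at 1 day. It had 11.2, 9.6, 9.53, 7.52 and 13.1 scaled TPM in cabergoline-treated 60-day organoids, against 2.32, 4.64, 2.7, 4.37 and 4.57 in cabergoline-treated 1-day organoids. In untreated mice it had 10.1, 3.54, 10.5, 8.71 and 10.9 at 60 days, against 2.81, 5.77, 6.09, 3.17 and 2.87 at 1 day. The cabergoline-treated groups were fully apart, and 4 of 5 untreated 60-day libraries lay above every untreated 1-day library, the exception being the library rich in milk transcripts. The nulliparous libraries were tight, at 9.79, 10.3, 9.36, 11.6 and 10.7.

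Rad51ap1 (ENSMUSG00000030346.16, chr6:126923050-126939587, minus strand), which aids strand pairing, had 4.45, 4.69, 3.84, 4.12 and 4.39 scaled TPM in cabergoline-treated 60-day organoids, against 4.96, 0, 3.5, 3.26 and 5.23 in untreated ones. It was listed at 0 in untreated 60-day replicate 2, the library where Brca1 was highest and Xrcc2 the lowest of its group. Nulliparous libraries had 3.36 to 4.86, and 1-day libraries had 1.79 to 4.64 with cabergoline and 1.58 to 3.58 without. Blm (ENSMUSG00000030528.12, chr7:80454733-80535119, minus strand), the helicase that dissolves joint molecules, had 10.4, 14.2, 7.79, 9.18 and 13.7 scaled TPM in cabergoline-treated and 8.66, 4.64, 5.78, 4.82 and 13.6 in untreated 60-day organoids. Thus 3 of 5 untreated libraries lay below every cabergoline-treated one, and the ranges overlapped. It averaged 10.1 scaled TPM in nulliparous organoids, and 6.71 and 6.18 in cabergoline-treated and untreated 1-day organoids.

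**Figure D1:**
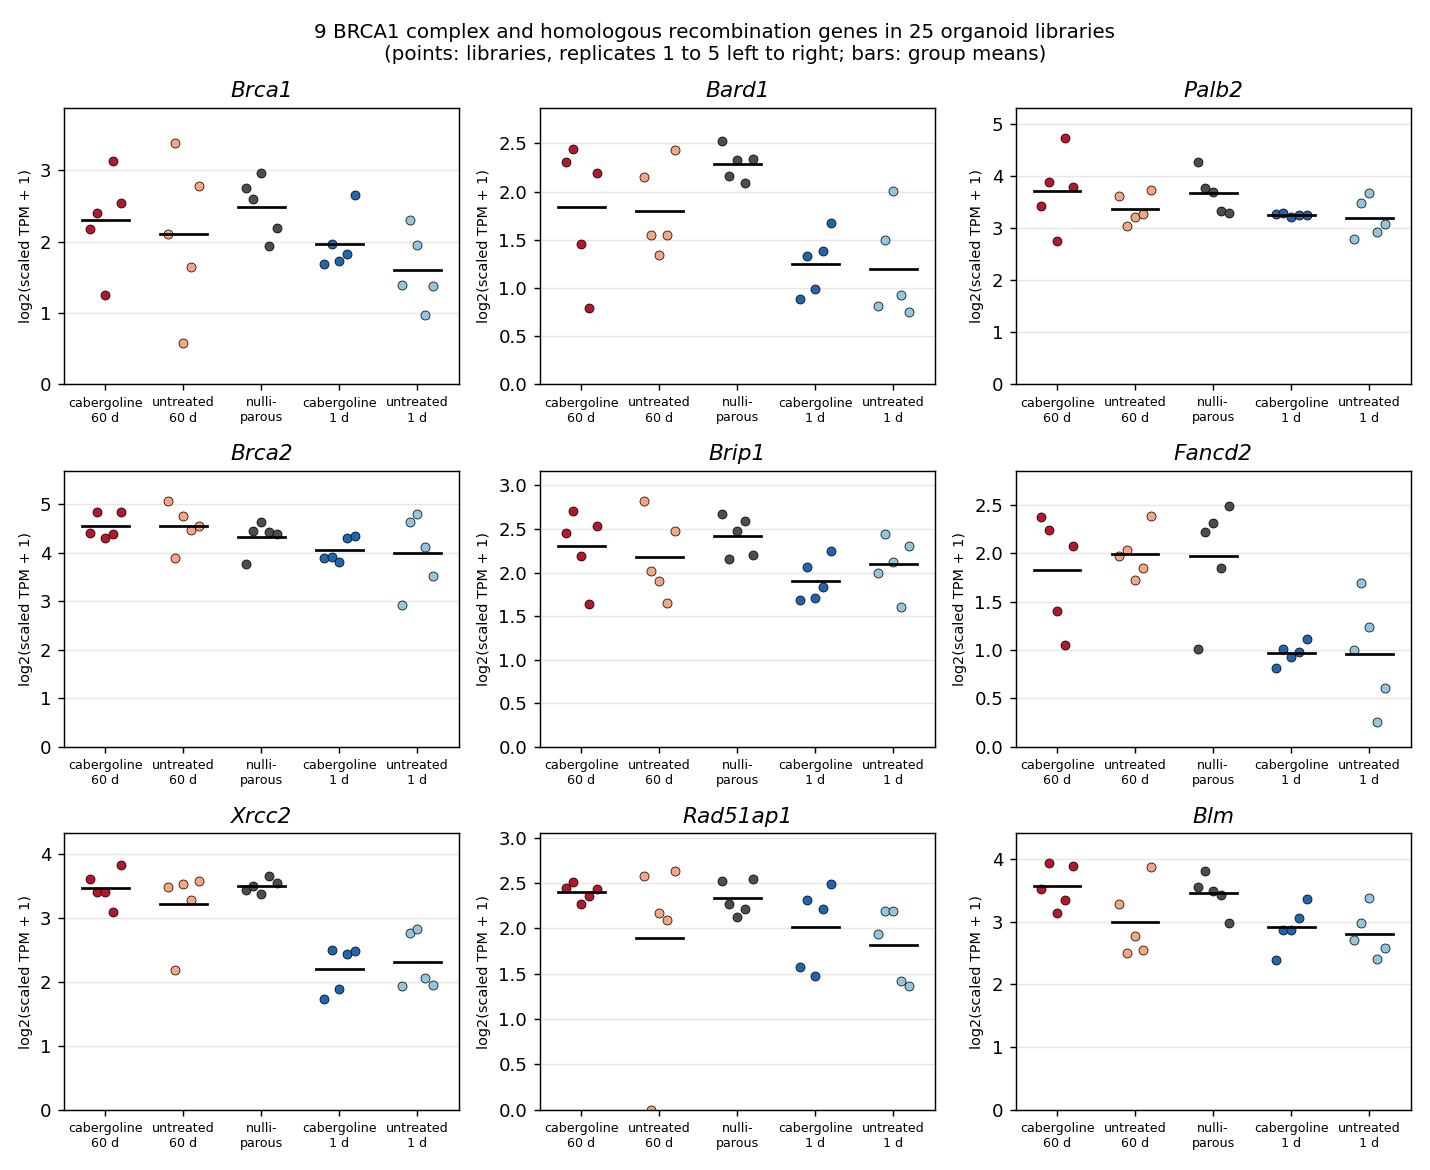
Level of each of the 9 genes as log2(scaled TPM + 1) in every library, with cabergoline-treated and untreated 60-day, nulliparous, and cabergoline-treated and untreated 1-day groups on the horizontal axis, points for the 5 libraries and bars for group means. Xrcc2 separates the cabergoline-treated 60-day libraries (7.52 to 13.1 scaled TPM) from the cabergoline-treated 1-day libraries (2.32 to 4.64), while the ranges of Brca1 overlap in every pair of groups.

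In the order of group means, both 1-day groups were the lowest for each of the 9 genes, and the highest was the nulliparous group for 5 genes (Brca1, Bard1, Brip1, Fancd2 and Xrcc2), the cabergoline-treated 60-day group for 3 (Palb2, Rad51ap1 and Blm) and the untreated 60-day group for Brca2. Neighbours in this order overlapped in range for all 9 genes.

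Whether cabergoline changed these genes was asked at each time. No member passed the threshold at 60 days (0 of 9 called, against 0% of 19086 genes tested). Their log2 fold changes, on log2(scaled TPM + 1), ran between -0.16 (Fancd2) and 0.57 (Blm, 95% interval -0.15 to 1.29). The median was 0.20, against 0.00 over all genes. Without untreated 60-day replicate 2, the library rich in milk transcripts, Rad51ap1 moved from 0.51 to 0.03 and Xrcc2 from 0.26 to 0.00. Blm then stood at 0.45 and Brca2 at -0.15, while Brca1 stood at 0.52. Each was at an end of its range over single libraries left out. Brca1 differed by 0.20 (SE 0.54, interval -0.99 to 1.39). The paper, with edgeR, reports genes at the same adjusted threshold here, for cabergoline at 1 day and for both comparisons with nulliparous mice. Limma on scaled TPM called 0% of genes in each of them. A count of 0 therefore does not mean that expression was unchanged.

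At 1 day 0 of 9 members were called, again against 0% of all genes. The log2 fold changes lay between -0.19 (Brip1) and 0.37 (Brca1, interval -0.26 to 1.01), with a median of 0.05 against 0.01 for all genes. Palb2 had the narrowest interval, -0.34 to 0.47 around 0.07. No member had an unadjusted p of 0.05 or less at either time in limma, while 240 genes did at 60 days and 401 at 1 day. The difference between the 2 cabergoline effects was tested as an interaction. It was not called for any of the 9 genes (0% of all genes were called, 282 with an unadjusted p of 0.05 or less), and its values ran between -0.18 (Fancd2) and 0.46 (Blm, SE 0.40).

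Whether 2 pregnancies left a mark was asked against age-matched nulliparous mice, which both comparisons share. For untreated 60-day against nulliparous organoids, 0 of 9 members were called (0% of all genes, 483 with an unadjusted p of 0.05 or less). The values were below 0 for 7 genes and above 0 for 2, between -0.49 (Bard1, interval -1.09 to 0.12) and 0.21 (Brca2), with a median of -0.30 against -0.05 over all genes. Of all genes 44.1% were above 0. For cabergoline-treated 60-day against nulliparous organoids 0 of 9 were called (0% of all genes, 986 with an unadjusted p of 0.05 or less). The changes lay between -0.45 (Bard1, interval -1.20 to 0.30) and 0.22 (Brca2), and Xrcc2 stood at -0.04 with an interval of -0.50 to 0.43. Brca1 was at -0.39 (SE 0.49) in untreated and -0.19 (SE 0.37) in cabergoline-treated mice.

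**Figure D2:**
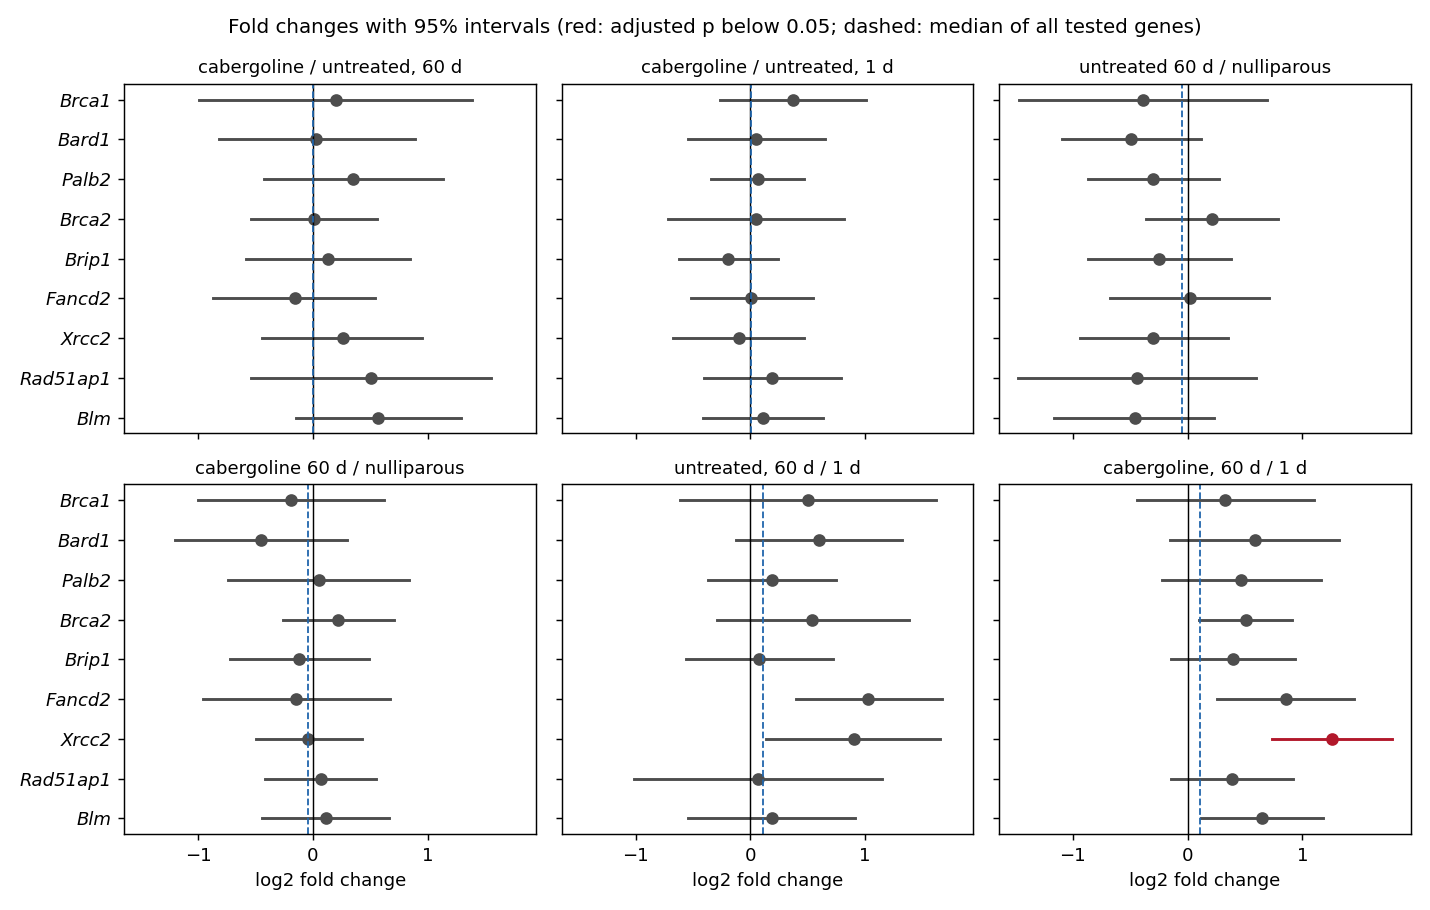
Log2 fold change of the 9 genes with 95% intervals in each of 6 comparisons, the group named first over the group named second. Points are estimates, red marks adjusted p below 0.05, and the dashed line is the median of all tested genes. Only Xrcc2 in cabergoline-treated mice, at 1.26 for 60 days over 1 day, is red.

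The regressed gland at 60 days was compared with the gland at 1 day after weaning, in separate sets of mice, so that the set of mice and the time cannot be told apart. In cabergoline-treated mice Xrcc2 rose 2.4-fold (log2 1.26, SE 0.23, limma adjusted p = 0.00539), the single member called of 9, against 18.0% of all genes called in either direction and 8.01% called higher. Fancd2 had a fold of 1.81 with an adjusted p of 0.0502. These folds are on log2(scaled TPM + 1), which understates the change of low genes. Fancd2 averaged 2.76 scaled TPM at 60 days and 0.965 at 1 day, and Xrcc2 averaged 10.2 and 3.72. As deposited, the 1-day mean of Fancd2 was 0.574 TPM, near the floor. Brca2 (0.51, adjusted p = 0.0786) and Blm (0.65, adjusted p = 0.0831) had unadjusted p-values of 0.0191 and 0.021. All 9 values were above 0, with a median of 0.51 against 0.11 over all genes, of which 57.3% were above 0.

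In untreated mice 0 of 9 members were called, against 0.927% of all genes (177, with 3581 at an unadjusted p of 0.05 or less). Fancd2 had a fold of 2.05 (log2 1.03, SE 0.29, adjusted p = 0.117) and Xrcc2 one of 1.87 (0.90, SE 0.34, adjusted p = 0.202). Fancd2 averaged 3.02 scaled TPM at 60 days and 1.06 at 1 day. As deposited, its 1-day mean was 0.623 TPM, again near the floor. All 9 values were again above 0, between 0.07 (Rad51ap1) and 1.03, with a median of 0.50 against 0.11 over all genes. Of all genes 57.5% were above 0. Without untreated 1-day replicate 3, the library low in milk transcripts, Fancd2 stood at 1.11 (adjusted p = 0.092) and Xrcc2 at 1.03 (adjusted p = 0.138), and 449 genes were called. Without untreated 60-day replicate 2 they stood at 1.02 (adjusted p = 0.119) and 1.16 (adjusted p = 0.0825), and 0 of 9 members were called either way. Neither Brca1 (0.50, interval -0.61 to 1.62) nor Palb2 (0.19, interval -0.37 to 0.75) passed.

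Exact two-sided permutation tests on each gene gave the smallest p that 5 against 5 libraries allow, 0.00794, for Xrcc2 in cabergoline-treated and Fancd2 in untreated mice. After adjustment over all 54 tests no p was below 0.214. With 0.00794 as the smallest p possible, a gene could pass this adjustment only if many other tests also stood at or near it. The adjusted permutation values therefore cannot decide whether Xrcc2 or Fancd2 differed, however far apart their groups lay. Groups without overlap in the higher direction were found for 8.38% of all genes in cabergoline-treated and 2.88% in untreated mice. The counts over time depend on scaling and on single libraries. On TPM as deposited the median of all genes moved to 1.30 in cabergoline-treated and 1.48 in untreated mice, and 9 and 8 members were called. Of all 19086 genes tested, 13060 and 12508 were called there. Without cabergoline-treated 60-day replicate 4, 5 members were called (Bard1, Brca2, Brip1, Fancd2 and Xrcc2) among 5205 genes in all.

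The other genes of the pathway were read from lists chosen with results of these data known. With cabergoline at 60 against 1 day, 3 of 13 Fanconi anemia genes (23.1%) rose and 0 fell. Of all genes 8.01% were called higher in that comparison and 18.0% in either direction. No test compared the list with all genes. All 13 were above 0, as were 57.3% of all genes, with a median of 0.39. Those called were Fancl, the ubiquitin ligase subunit (1.28, adjusted p = 0.0332), Fancc (0.85, adjusted p = 0.00714) and Faap100 (0.88, adjusted p = 0.0322). Of 13 strand exchange genes counted 1 rose and 2 fell (23.1% called). Xrcc3 rose (0.80, adjusted p = 0.0209), while Sfr1 (-1.27, adjusted p = 0.00031) and Swi5 (-0.99, adjusted p = 0.016), partners in 1 complex, fell. Sfr1 also fell in untreated mice (-1.37, adjusted p = 0.0175). These falls are relative to the typical gene: as deposited, Sfr1 averaged 16.4 TPM at 60 days and 14.2 TPM at 1 day, and Swi5 51.8 and 34.1 TPM.

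In the same comparison every call in the other lists was upward, and 8.01% of all genes were called higher. The shares of end resection, proliferation and E2F genes were above that, on 1 or 2 genes each. Those of the remaining lists were below it. In end resection 1 of 9 genes (11.1%), Rpa2, a subunit of the single-strand binding protein, rose (0.78, adjusted p = 0.026), as did 1 of 13 end joining genes (7.69%), Prkdc, the DNA-dependent kinase (0.94, adjusted p = 0.0404). Of 7 dissolution and resolution genes, 15 damage checkpoint genes and 5 BRCA1-A complex genes 0 were called. Of 22 proliferation genes 2 (9.09%) were called higher, Mcm3 of the replicative helicase (1.87, adjusted p = 0.0129) and Tyms (0.72, adjusted p = 0.0126), and 20 of 22 were above 0, with a median of 0.72. E2f2, a transcription factor of S phase entry, rose among 5 E2F genes, thus 20% of them (1.45, adjusted p = 0.0461). In untreated mice over time, Sfr1 was called, no gene of the other lists was, and in the cabergoline and parity comparisons no gene of those other lists was called either. The proliferation list had 20 of 22 values above 0 and a median of 0.65 in untreated mice.

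The 9 genes varied together from library to library to unlike degrees. Over the 25 libraries all 36 pairs had a positive Pearson correlation, between 0.04 (Brca1 and Rad51ap1) and 0.79 (Bard1 and Xrcc2). With each group's mean subtracted 33 of 36 stayed positive, and the highest was Xrcc2 with Rad51ap1 at 0.85. Brca1 followed the other 8 least, with a mean of 0.20 after subtraction, against 0.52 for Bard1, its partner. These are descriptions, and the points share a library, its scaling factor and its cell makeup. Over the 25 libraries the mean of the 9 genes, each in units of its own SD, had an r of 0.82 with the log2 scaling factor. The share of positive pairs among other genes was not counted.

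The 10 libraries at 1 day fell into separate clusters by their T cell markers, too small for a correlation within each. The 5 libraries at 1 day with T cell sums of 17.1 to 37.7 scaled TPM held 29.9 to 38.4 scaled TPM of the 9 genes in sum, and the 5 with T cell sums of 412 to 952 held 46.4 to 68.3. Xrcc2 was 2.32 to 3.17 scaled TPM in the first 5 and 4.37 to 6.09 in the others. Brca1 was 0.951 to 2.31 scaled TPM in the first 5 and 2.53 to 5.3 in the others, so at 1 day it was split in the same way. The first 5 included 2 cabergoline-treated libraries and the others 3. The first 5 also had luminal sums of 1343 to 2729 scaled TPM, against 14.5 to 1255 in the others. Their milk sums were 474444 to 915097 against 111 to 413420 scaled TPM, and their proliferation sums 141 to 172 against 234 to 405. Scaling factors were 0.264 to 0.458 in the first 5 and 0.603 to 0.937 in the others. The part of each in the level of the 9 genes was not tested.

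In the 15 libraries of the 60-day and nulliparous groups the mean of the 9 genes, each in units of its own SD, had a Pearson r of 0.82 and a Spearman rho of 0.75 with the summed proliferation list, and an r of 0.85 without the 2 libraries farthest from the median. The same mean had an r of 0.68 and a rho of 0.79 with T cell markers (r = 0.69 without the 2 farthest), an r of 0.58 and a rho of 0.60 with B cell markers (r = 0.53) and an r of -0.69 and a rho of -0.76 with basal markers (r = -0.77). T cell sums had medians of 908 scaled TPM in cabergoline-treated 60-day against 412 in cabergoline-treated 1-day libraries, and 503 in untreated 60-day against 20.9 in untreated 1-day libraries. Endothelial sums were 276 to 1596 against 164 to 266 scaled TPM in cabergoline-treated mice. The part of these marker differences in the higher Xrcc2 and Fancd2 levels at 60 days was not tested. Nulliparous replicate 4, with 17.1 scaled TPM of T cell markers, had 11.6 of Xrcc2, the highest of its group. Untreated 60-day replicate 2, with 11 scaled TPM of T cell markers, had 3.54 of Xrcc2, the lowest of its group.

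**Figure D3:**
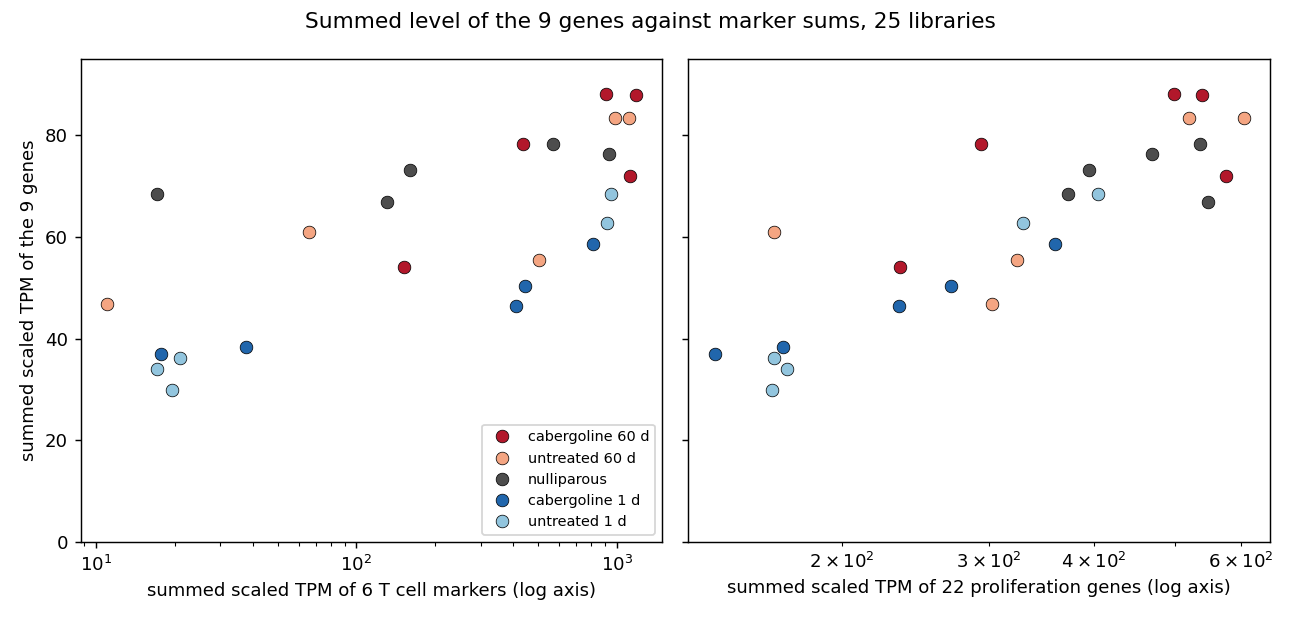
Summed scaled TPM of the 9 genes (vertical axis) against the summed scaled TPM of 6 T cell markers (left) and of 22 proliferation genes (right), both on log axes, with 1 point per library coloured by group. At 1 day the libraries with T cell sums of 17.1 to 37.7 sit at 29.9 to 38.4 on the vertical axis, below those with sums of 412 to 952, at 46.4 to 68.3.

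Over the 15 libraries of the 60-day and nulliparous groups, Brca1 had an r of 0.06 and a rho of 0.11 with the mean of the other 8 genes, and an r of 0.44 without the 2 farthest libraries. Untreated 60-day replicate 2 had the highest Brca1 of the series, 9.48 scaled TPM, with the lowest sum of the other 8 genes among those 15 libraries, 37.3. Untreated 60-day replicate 3 had the lowest Brca1, 0.49, with a sum of 60.5.

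**Figure D4:**
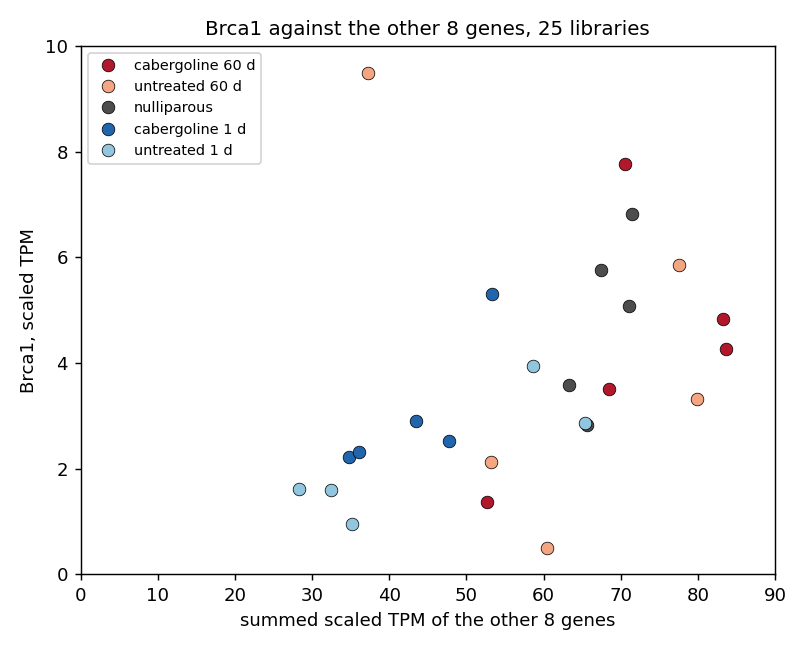
Brca1 in scaled TPM (vertical axis) against the summed scaled TPM of the other 8 genes (horizontal axis), 1 point per library coloured by group. Untreated 60-day replicate 2 stands apart at 9.48 against 37.3, and untreated 60-day replicate 3 at 0.49 against 60.5.

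The genes whose pattern over all 25 libraries was most like the mean of the 9 were, by Pearson r, Shcbp1 (0.962), Atad2 (0.953), Dtymk (0.951), Eml4 (0.946), Cdca2 (0.942), Bend4 (0.938), Usp11 (0.936), Racgap1 (0.93), Gm48443 (0.926) and Cenpa (0.926). After the group means were subtracted they were Kif11 (0.941), Camk4 (0.94), Dek (0.94), Prmt3 (0.94), Tox (0.939), Trav6-1 (0.937), Birc2 (0.935), Eml4 (0.933), Atad2 (0.93) and Shcbp1 (0.928). Kif11 is a mitotic kinesin, Cenpa the centromeric histone and Racgap1 a cytokinesis factor, while Trav6-1 is a T cell receptor segment and Tox and Camk4 are known from T cells. The genes most like Brca1 alone were Mms22l (0.866), C2cd3 (0.837), Txndc11 (0.835), Mks1 (0.816) and Grem1 (0.812), of which Mms22l is known for the recovery of stalled replication forks.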

How the data were processed

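RNA-seq was run on total RNA of mammary organoids after removal of ribosomal RNA. The authors quantified reads with Salmon on GRCm38 and deposited 1 table of TPM per gene for 25 libraries; each library sums to about 1e+06. The sources used here do not name the annotation or the use of strand. TPM keep no read depth, so no interval that needs it is given. Each library was scaled by its median ratio to the geometric mean over 9778 genes at 1 TPM or more in all libraries. Each comparison was fitted with limma 3.58.1 in R 4.3.3 (eBayes with trend, two-sided) on log2(scaled TPM + 1) for its own groups alone, over the 19086 genes reaching 1 TPM in 5 or more libraries, and p-values adjusted by Benjamini-Hochberg were called at 0.05. Permutation tests used scipy 1.17.1 and Python 3.11.15. Gene positions came from a GENCODE annotation of GRCm38, promoters from RefSeq. The members and the gene lists were chosen with earlier results of these data known. All 9 members are named, with Trp53; list genes named are up to 4 called with the smallest p, and similar genes the 10 (5 for Brca1) of highest correlation. Alternatives were scaling, pseudocount, filter, all libraries in 1 fit, a replicate block, library quality weights and leaving out each library; leaving out both libraries with the fewest genes was chosen after seeing the data.  The strand exchange counts leave out a gene that is not reported here.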

Additional observations from a re-analysis of the deposited data

Results flagged for a closer look

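Of 45 sets of 5 libraries (9 genes in 5 groups), 3 had a library whose gap to its nearest neighbour was over 0.71 of the range on log2(scaled TPM + 1), where chance gives about 1 in 20. Brca1 was 5.3 scaled TPM in cabergoline-treated 1-day replicate 5, against 2.21 to 2.9 in the other 4 libraries. That library also had the highest T cell sum of its group, 809 scaled TPM. Xrcc2 was 3.54 scaled TPM in untreated 60-day replicate 2, against 8.71 to 10.9 in the others, and Rad51ap1 was listed at 0 there, against 3.26 to 5.23. That library had the lowest T cell sum of the series, 11 scaled TPM, a luminal sum of 2181 and 17223 genes above 0 TPM. The part of these in the values was not tested.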

How the results depend on the processing

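Xrcc2 over time in cabergoline-treated mice was called under every alternative, with log2 changes of 1.14 to 2.52 and adjusted p of 0.000178 to 0.0265. The 0 of 9 members called for cabergoline at either time, for parity and for the interaction held under every alternative run, except that Bard1 and Fancd2 were not tested for cabergoline at 1 day with the filter applied within the comparison. In the time comparisons the count of members was 0 in untreated and 1 in cabergoline-treated mice. For untreated mice it became 8 on TPM as deposited, 2 with all 25 libraries in 1 fit and 3 with library quality weights. For cabergoline-treated mice it became 9 on TPM as deposited, 2 with quantile normalization, 2 with the filter applied within the comparison and 7 with quality weights, and 1 to 5 with each library left out. All genes called over time in untreated mice were 177 (40 higher, 137 lower), against 12508 (12421 higher, 87 lower) on TPM as deposited, 1350 (607 higher, 743 lower) with all libraries in 1 fit, 8619 (5385 higher, 3234 lower) with quality weights, and 42 to 449 with each library left out (42 without untreated 1-day replicate 4, 449 without replicate 3, the library low in milk transcripts). In cabergoline-treated mice they were 3439 (1528 higher, 1911 lower), against 13060 (12553 higher, 507 lower) as deposited, 9179 (5464 higher, 3715 lower) with quality weights, and 1997 to 5205 with each library left out. Quantile normalization called 1337 genes higher and 2078 lower in cabergoline-treated mice. With the filter applied within the comparison 1682 were higher and 1922 lower, of 16457 tested. In the other comparisons, where 0 genes were called, alternatives called up to 3. As deposited, the median of all genes moved to 1.48 in untreated and 1.30 in cabergoline-treated mice over time, against 0.11 in both, and to 0.27 for cabergoline at 1 day and -0.18 for the interaction. The cause was not tested.

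Replicate numbers were not treated as pairs. With group means subtracted, libraries of the same number in 2 groups correlated between -0.72 and 0.64. No comparison had all 5 pairs over 0.1. These profiles also carry the cell makeup of each library, so they cannot exclude a batch shared by replicate number. With the replicate block, 7 instead of 177 genes were called over time in untreated mice, 2744 instead of 3439 in cabergoline-treated mice, and 0 and 1 members; no member's call changed.

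Under the alternatives 1163 member values kept sign and call, 34 kept sign and newly passed the threshold, and 106 changed sign, each of the 106 with an adjusted p of at least 0.387. Values that changed sign for cabergoline at 1 day were Brip1 (0.06) and Xrcc2 (0.12) as deposited, Bard1 (-0.02), Palb2 (-0.02), Brca2 (-0.03) and Fancd2 (-0.05) with quantile normalization, Fancd2 (-0.01) with factors from the comparison alone, and Xrcc2 (0.27) with quality weights. For cabergoline at 60 days they were Brca2 (-0.01) with factors from the comparison alone, Bard1 (-0.01) with a pseudocount of 0.1, Fancd2 (0.26) with quality weights, and Brca2 (-0.11) and Fancd2 (0.04) without both libraries with the fewest genes. Against nulliparous mice they were, in untreated mice, Fancd2 as deposited (-0.08) and with quality weights (-0.33), and in cabergoline-treated mice Brip1 (0.06), Fancd2 (0.08) and Xrcc2 (0.02) with quantile normalization and Brip1 (0.17) and Xrcc2 (0.11) with quality weights. Over time in untreated mice they were Brip1 (-0.05) and Rad51ap1 (-0.13) with quantile normalization, Rad51ap1 (-0.37) with a pseudocount of 0.1 and Brip1 (-0.04) with quality weights. For the interaction they were Bard1 (0.12) and Brca2 (0.03) with quantile normalization, Bard1 (0.20), Xrcc2 (-0.07) and Rad51ap1 (-0.22) with quality weights, and Bard1 (0.18), Palb2 (-0.05), Fancd2 (0.03) and Rad51ap1 (-0.15) without both libraries.

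With each library left out in turn, the values that changed sign for cabergoline at 1 day ranged over -0.06 to 0.26 (Bard1), -0.03 to 0.19 (Palb2), -0.22 to 0.25 (Brca2), -0.16 to 0.20 (Fancd2), -0.20 to 0.03 (Xrcc2) and 0.00 to 0.25 (Blm). At 60 days they were -0.18 to 0.52 (Brca1), -0.12 to 0.30 (Bard1), -0.15 to 0.14 (Brca2) and -0.30 to 0.03 (Fancd2). Against nulliparous mice they were -0.22 to 0.15 (Fancd2) and -0.63 to 0.03 (Rad51ap1) in untreated mice, and -0.40 to 0.07 (Brca1), -0.21 to 0.29 (Palb2), -0.21 to 0.05 (Brip1), -0.39 to 0.05 (Fancd2), -0.13 to 0.06 (Xrcc2) and -0.01 to 0.22 (Blm) in cabergoline-treated mice. Over time in untreated mice they were -0.08 to 0.21 (Brip1), -0.11 to 0.55 (Rad51ap1) and -0.04 to 0.33 (Blm). For the interaction they were -0.55 to 0.15 (Brca1), -0.22 to 0.24 (Bard1), -0.24 to 0.23 (Brca2), -0.36 to 0.02 (Fancd2) and -0.16 to 0.50 (Rad51ap1).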
